A study of Mus musculus with 2 samples.

Results

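Nuclear pore and nuclear transport genes were compared between whole lungs of wildtype mouse embryos and whole lungs of embryos homozygous for Nmyc9a, a hypomorphic allele of Mycn, both at embryonic day 18. A member was any gene with a probe set whose only symbol in the platform's annotation was a numbered Nup (nucleoporin), Kpna or Kpnb (karyopherin), Ipo (importin) or Xpo (exportin), or was Rae1, Aaas, Seh1l, Ndc1, Ranbp2 or Ran. Tpr, which the rule also names, had no probe set under that symbol alone. The rule gave 44 genes with 122 probe sets, out of 18193 named genes and 45037 probe sets. It used symbols only, but the group was proposed after values of these same arrays had been seen, Nup107 among them, so every ratio below is a description of the comparison that led to the choice.

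RNA of pooled lungs was hybridised to 2 Affymetrix arrays, 1 per group, and the strain, the sex and the number of pooled lungs are not stated in the labels. With 1 array per group no difference has a replicate check and none was tested. The number of arrays limits the precision. Signals are arbitrary units after scaling, given for the wildtype array first and the array labelled Nmyc9a second. A probe set was measured when the mean of both signals reached a floor of 49.3, the level of the 40th percentile. Lower values were set to the floor before a ratio was formed, so that such ratios are bounds. The error that can be given is the spread among the log2 ratios of a gene's own probe sets, with a pooled SD of 0.40 over 5671 genes and 0.44 over the 29 members with at least 2 measured probe sets. It measures disagreement of probe sets on the same arrays and holds no variation between arrays or lungs.

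The nuclear pore is a ring-shaped channel through the nuclear envelope, built from nucleoporins that form an outer coat, an inner ring, a membrane anchor, a channel filled with disordered repeats, and filaments on both faces. Importins carry proteins with localisation signals into the nucleus, exportins carry cargo out, and the small GTPase Ran gives both their direction, because its GTP-bound form releases import cargo and binds export cargo. Dividing cells rebuild their pores after every mitosis and insert more during interphase, and several transport factors also act on the mitotic spindle.

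The lung signal of both arrays was high for defining genes, with Sftpc, surfactant protein C, at 8639 and 8966. Mycn read 66.3 and 84.8 by its brightest probe set and 51.1 and 85.4 by the second measured one (1.67-fold higher), so it was not lower in the hypomorph's array. The position of its probes relative to the allele's lesion was not available for this comparison. That array is therefore called by its label throughout. In whole-lung RNA fewer cells of a type and less RNA per cell cannot be told apart. Of 18 measured markers of proliferation, 16 were at least 1.5-fold lower, where 9.7% of all measured genes were. Bub1, one of the 16, reached the floor only on the wildtype array. Summed signals were 7792 and 4191 over the 19 proliferation markers on the array, with none at 0 on either array. Of the liver markers 4 of 4 measured were at least 1.5-fold higher, and of the skeletal muscle markers 2 of 3, where 6.33% of all measured genes were. Apoa1 and Ttr of liver and Acta1 of muscle reached the floor only on the array labelled Nmyc9a. Over the 5 genes of each list on the array, measured or not, summed signals were 273 and 1047 for liver. For skeletal muscle they were 314 and 696. All 5 type 1 alveolar markers lay below a log2 ratio of 0, with a median of -0.37 and summed signals of 15431 and 12541, Aqp5 among them at 1.63-fold lower, and all 3 airway markers lay above 0, with summed signals of 10518 and 12346. The 5 type 2 markers had a median of 0.03. The part of any of these in the values below was not tested.

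Most members had lower signal on the array labelled Nmyc9a. Of the 42 measured members 32 lay below a log2 ratio of 0 and 10 above it, where 58.7% of all 12600 measured genes lay below. The members' median log2 ratio was -0.27 and that of all measured genes was -0.09. At least 1.5-fold lower (a log2 ratio of -0.58 or less) were 9 members, Nup107, Nup205, Kpna2, Nup43, Xpo1, Nup37, Ipo5, Ran and Ranbp2, where 9.7% of all measured genes were that much lower. At least 1.5-fold higher were 2 members, Nup62 and Kpna7, where 6.33% of all measured genes were. Both entered that count through the array labelled Nmyc9a. Kpna7 reached the floor only there, and the counted probe set of Nup62 was the gene's brightest only through its signal there. The other 3 measured probe sets of Nup62 lay between -0.94 and -0.73. Of the 9 lower members, Nup107 reached the floor only on the wildtype array. The counted probe sets of Ipo5 and Nup43 were the brightest of their genes only through their wildtype signals. The second measured probe sets of Ipo5 and Nup43 lay at -0.46 and -0.52, within 1.5-fold. At least 2-fold lower were 3 members, Nup107, Nup205 and Kpna2, and 2-fold higher 1, Nup62, where 1.38% and 1.29% of all measured genes were. Counted by probe set, 73 of the members' 98 measured ones lay below 0. For all measured probe sets, with or without a named gene, that share was 50%, which the scaling fixed in advance. Aaas and Nup210l had no measured probe set and carry no ratio.

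**Figure D1:**
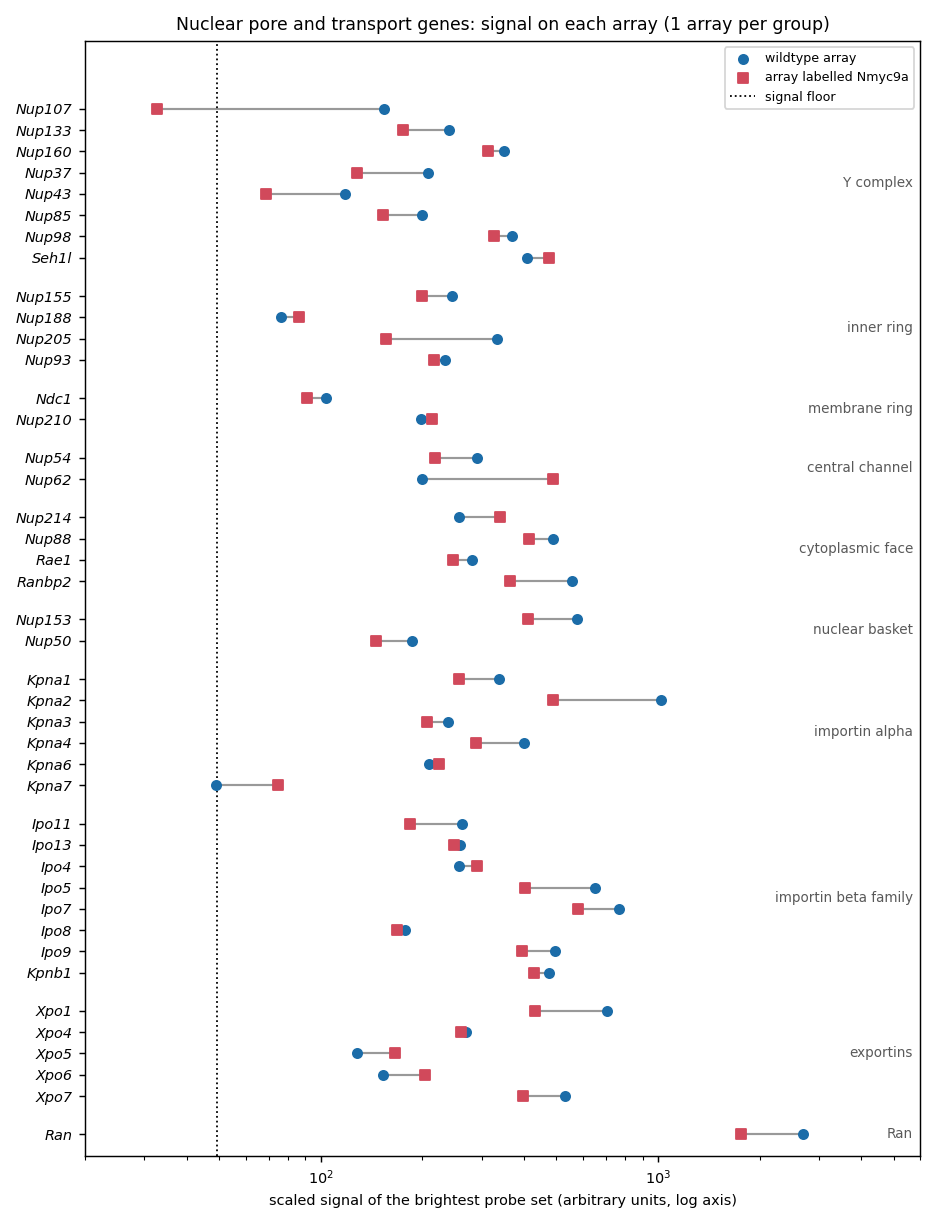
Scaled signal of the brightest probe set of each of the 42 measured members on the wildtype array (circles) and the array labelled Nmyc9a (squares), on a log axis in arbitrary units, grouped by role, with the floor of 49.3 as a dotted line. Nup107 drops below the floor on the array labelled Nmyc9a, Kpna2 moves from 1024 to 488, and Nup62 is the member farthest to the right of its wildtype signal.

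Promoter sequence was available for 35 of the 44 members, from RefSeq on GRCm38.p6, as windows from 250 bases before to 50 bases after a transcription start. Kpna1, Kpna3, Kpna6, Nup210l, Nup43, Nup85, Seh1l, Xpo4 and Xpo7 were not matched. The E-box CACGTG, the letters that Myc and Max bind, reads the same on both strands. It occurred in a window of 7 of the 35 members, where 8.09% of the 27025 genes with a window and 11.2% of the 10101 measured genes with one held it. These 7 were Ran, Ranbp2, Ipo4, Ipo7, Nup54, Nup93 and Nup188, so 2 of the 8 members that were at least 1.5-fold lower and had a window held it. CCAAT, the letters bound by NF-Y and common before genes of the cell cycle, was searched on both strands as CCAAT and ATTGG and cannot share letters with a CACGTG. It was chosen after the values were seen and occurred in 17 of the 35 members (48.6%), where 41.1% of all genes with a window and 42.4% of the measured ones held it. A match is a description of letters and not a bound site.

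The 250 bases before the start are shown for Ran and Ranbp2, the members with an E-box among those lower by 1.5-fold, and for the importin gene Kpna2 and the exportin gene Xpo1, which hold CCAAT. Sequences run 5′ to 3′ on the strand of the gene, with the motif in capitals.
Ran, chr5:129019906-129020155, plus strand: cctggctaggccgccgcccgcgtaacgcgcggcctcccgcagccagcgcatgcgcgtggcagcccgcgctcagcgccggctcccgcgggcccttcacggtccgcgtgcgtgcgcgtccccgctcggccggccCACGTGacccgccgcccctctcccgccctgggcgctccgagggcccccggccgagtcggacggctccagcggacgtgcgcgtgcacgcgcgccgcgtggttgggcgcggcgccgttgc
Ranbp2, chr10:58446602-58446851, plus strand: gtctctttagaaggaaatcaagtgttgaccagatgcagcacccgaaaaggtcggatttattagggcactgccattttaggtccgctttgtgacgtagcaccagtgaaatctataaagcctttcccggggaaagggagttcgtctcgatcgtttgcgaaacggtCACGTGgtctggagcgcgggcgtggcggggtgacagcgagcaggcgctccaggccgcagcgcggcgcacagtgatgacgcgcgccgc
Kpna2, chr11:106999526-106999775, minus strand: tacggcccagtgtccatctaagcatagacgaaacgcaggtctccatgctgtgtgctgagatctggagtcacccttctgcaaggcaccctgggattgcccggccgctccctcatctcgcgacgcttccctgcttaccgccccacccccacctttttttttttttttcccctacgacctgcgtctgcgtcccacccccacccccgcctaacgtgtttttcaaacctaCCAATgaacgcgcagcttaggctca
Xpo1, chr11:23255791-23256040, plus strand: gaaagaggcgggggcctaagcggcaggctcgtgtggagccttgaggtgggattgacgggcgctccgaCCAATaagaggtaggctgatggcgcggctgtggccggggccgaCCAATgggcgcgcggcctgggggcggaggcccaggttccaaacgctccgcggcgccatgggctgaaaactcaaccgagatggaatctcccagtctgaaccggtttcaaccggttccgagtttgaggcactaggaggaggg
The E-box of Ran starts 118 bases before the transcription start and that of Ranbp2 87 bases before it. A CCAAT of Kpna2 starts 25 bases before its start, and another lies just after it and is not shown, and those of Xpo1 start 183 and 140 bases before.

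Ran itself was lower by every measured probe set. Its brightest probe set read 2693 and 1759, a 1.53-fold lower signal and a log2 ratio of -0.61. The other 4 measured probe sets read 1928 and 1163, 1179 and 778, 997 and 601, and 302 and 168, so that the log2 ratios of all 5 lay between -0.84 and -0.60. The 5 probe sets read the same transcript on the same arrays and are not replicates of the difference. Of these 5, 4 are x probe sets, a class that may also bind transcripts other than the intended one, and the remaining one gave the lowest ratio, -0.84. The brightest ratio was -0.39 after quantile normalization or after loess on mean signal, short of 1.5-fold.

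Among importin alpha genes, the adaptors that bind a cargo's localisation signal and hand it to importin beta, Kpna2 had the largest log2 ratio by size. Kpna2, which is abundant in dividing cells, read 1024 and 488 by its only probe set, 2.10-fold lower. It was at least 1.5-fold lower under each of the 9 other settings of scaling, floor and probe set choice, with log2 ratios from -1.07 to -0.88. Its close relatives were lower by less or not at all in their brightest probe sets.

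Kpna1 read 339 and 258, a log2 ratio of -0.39, and all 5 of its measured probe sets were lower, from -1.20 to -0.24. Kpna4 read 401 and 289, a log2 ratio of -0.47, with its second probe set at -0.08. Kpna3 read 238 and 206, a log2 ratio of -0.21, while its other probe sets stood at -0.49 and -0.89. These 3 genes therefore had lower signal in each measured probe set, by amounts that differed by up to 0.97 on the log2 scale within 1 gene. Kpna6 read 210 and 224, with both probe sets above 0, at 0.10 and 0.13. Kpna7, an adaptor known from oocytes and early embryos, read 48.9 and 74.5, so its wildtype signal lay below the floor and it was at least 1.51-fold higher. At such a signal a small difference moves the ratio, and it fell short of 1.5-fold after quantile normalization (0.40), after loess (0.44) and with a pseudocount (0.33).

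The importin beta family holds the receptors that carry cargo through the pore. Kpnb1, the partner of importin alpha, read 474 and 429, a log2 ratio of -0.14, with its 4 probe sets between -0.39 and -0.14. Ipo5, a carrier of ribosomal proteins and histones, was the member of the family past 1.5-fold, at 650 and 403 (1.61-fold lower), and its second probe set read 598 and 434 (log2 ratio -0.46). After loess the brightest probe set of Ipo5 stood at -0.53 and after quantile normalization at -0.58, just inside the size rule.

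The rest of the family lay within 1.5-fold. Ipo11 read 263 and 184, a log2 ratio of -0.52. Ipo7, which also imports ribosomal proteins, read 768 and 580, a log2 ratio of -0.40, but its other measured probe sets stood at 0.32 and 0.51, from signals near the floor. Ipo9 read 496 and 396, with all 3 probe sets lower, from -0.44 to -0.08. Ipo8 (178 and 168) and Ipo13 (258 and 249) stood at -0.08 and -0.05 by the brightest probe set, far inside the SD between probe sets. The other measured probe sets of Ipo8 stood at -0.003 and, from signals near the floor, at 0.36. Ipo4 read 258 and 291 by its brightest probe set, a log2 ratio of 0.18, and stood at -0.36 by the second. In all, 7 of the 8 genes of the family lay below 0 by the brightest probe set, with a median of -0.23, where 58.7% of all measured genes lay below 0. The 1 of 8 past 1.5-fold (12.5%) is near the 9.7% of all measured genes.

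Of 5 measured exportin genes 1 was lower by 1.5-fold, where 9.7% of all measured genes were. Xpo1, the receptor of leucine-rich export signals, read 707 and 433, 1.63-fold lower, and its second probe set read 679 and 390 (log2 ratio -0.80). The probe sets of Xpo1 thus lay on the same side and close together. The ratio of its brightest probe set was -0.54 after loess and -0.57 after quantile normalization.

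Xpo7, a receptor with broad cargo, read 531 and 398, and its 3 measured probe sets were all lower, from -0.56 to -0.16. Xpo4 read 269 and 261, a log2 ratio of -0.05, while a second probe set, near the floor on the wildtype array, read 65.7 and 146, a log2 ratio of 1.15. Xpo5, which exports precursors of microRNAs, read 128 and 165 by its brightest probe set (log2 ratio 0.37) and 137 and 90.8 by the second (-0.59). The direction of Xpo5 therefore depends on the probe set. Xpo6, the exporter of actin and profilin, read 153 and 204, a log2 ratio of 0.42 from its only probe set.

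The outer coat of the pore, or Y complex, is the scaffold laid down first when pores form. Of its 8 members on the array 3 were at least 1.5-fold lower, none was higher, and the median was -0.42, where 9.7% and 6.33% of all measured genes were that much lower or higher and their median was -0.09. Nup107, a stem subunit of the Y, read 154 and 32.6, so that its second signal lay below the floor and it was at least 3.13-fold lower. It had a single probe set, of the s class, which may bind several transcripts, and therefore no second measurement. Nup43 and Nup37, small subunits bound to the arms of the Y, read 118 and 68.8 (1.72-fold lower) and 208 and 128 (1.62-fold lower). The second probe set of Nup43 read 103 and 72.1, a log2 ratio of -0.52, and Nup37 had only 1.

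The other coat genes lay within 1.5-fold. Nup85 read 200 and 153, with both probe sets lower, at -0.39 and -0.43. Nup98, whose transcript also encodes the coat subunit Nup96, read 370 and 327, with both probe sets lower, at -0.18 and -0.45. Nup160 read 349 and 312, a log2 ratio of -0.16. Those 3 genes lay below 0 in every measured probe set. Nup133 read 240 and 175 by its brightest probe set (log2 ratio -0.45), and its other measured probe sets stood at 0.30 and 0.25. Seh1l, shared between the coat and a nutrient-sensing complex, had 3 probe sets below 0, from -0.50 to -0.42, and 3 above, the brightest of them at 0.21. Neither Nup133 nor Seh1l had a direction that its probe sets shared.

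The inner ring holds the membrane and the channel together. Nup205, a large scaffold protein of that ring, read 333 and 156 by its brightest probe set, 2.14-fold lower, but 111 and 140 by the second, a log2 ratio of 0.34. The median of its probe sets was -0.38, within 1.5-fold. Nup155 read 244 and 199 with both probe sets lower, at -0.29 and -0.41. Nup93, the partner of Nup205 and Nup188, read 234 and 217, a log2 ratio of -0.11. Nup188, at 76.2 and 85.9, stood at 0.17, and at -0.02 after quantile normalization or loess.

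Of the membrane anchors, Ndc1 read 104 and 90.9 by its brightest probe set, a log2 ratio of -0.19. Its other probe sets read 91.8 and 48.9, and 81.2 and 49.3, log2 ratios of -0.90 and -0.72 that rest on second signals at the edge of the floor, just below it. All 3 probe sets of Ndc1 were lower, and their median of -0.72 was past 1.5-fold where the brightest was not. Nup210, a transmembrane glycoprotein, read 198 and 213, a log2 ratio of 0.11.

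Nup62, the core of the central channel, was called by a probe set that its others opposed. The brightest probe set, of the x class, read 199 and 487, 2.45-fold higher. The other 3 measured probe sets read 286 and 167, 267 and 162, and 229 and 120, log2 ratios of -0.77, -0.73 and -0.94. The one at -0.94 is of the x class too. The higher probe set was the brightest of the gene only through its signal on the array labelled Nmyc9a. The median over its probe sets was -0.75, and leaving out probe sets of the x, s and a classes gave -0.77, so the direction of Nup62 reverses with the choice of probe set. Nup54, which binds Nup62 in the channel, read 291 and 219, with 3 probe sets from -0.41 to -0.29 and another at 0.42. The probe set at 0.42 and a lower one at -0.38 are both of the x class.

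On the cytoplasmic face, Ranbp2, a giant protein that binds Ran and attaches SUMO to others, read 556 and 364, 1.52-fold lower, and a second probe set stood at -0.38. Its remaining probe sets stood at 0.31 and 0.41, and the median over all 4 was -0.03. Nup214, the docking site for export complexes, was higher in both probe sets, at 257 and 340 and at 135 and 202, log2 ratios of 0.40 and 0.58. Nup214 and Kpna6 were the members with at least 2 measured probe sets that all lay above 0. Nup88, the partner of Nup214, read 488 and 414 (-0.24), and Rae1, an mRNA export factor that also acts on the spindle, read 281 and 247 (-0.19).

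The nuclear basket faces the chromatin. Nup153 read 574 and 413, a log2 ratio of -0.48, while its dimmer probe sets stood at -0.30 and 0.60, both from signals near the floor. Nup50, which helps to release importin alpha from its cargo, read 186 and 146, and its 3 probe sets lay close together, from -0.42 to -0.35. The ratios of Nup50 lay inside the 0.44 by which probe sets of a member vary (pooled SD). The -0.30 of Nup153 did too, while its -0.48 and 0.60 lay beyond that SD. A ratio beyond that SD is not thereby told apart from no change, because the SD holds no variation between arrays or lungs.

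**Figure D2:**
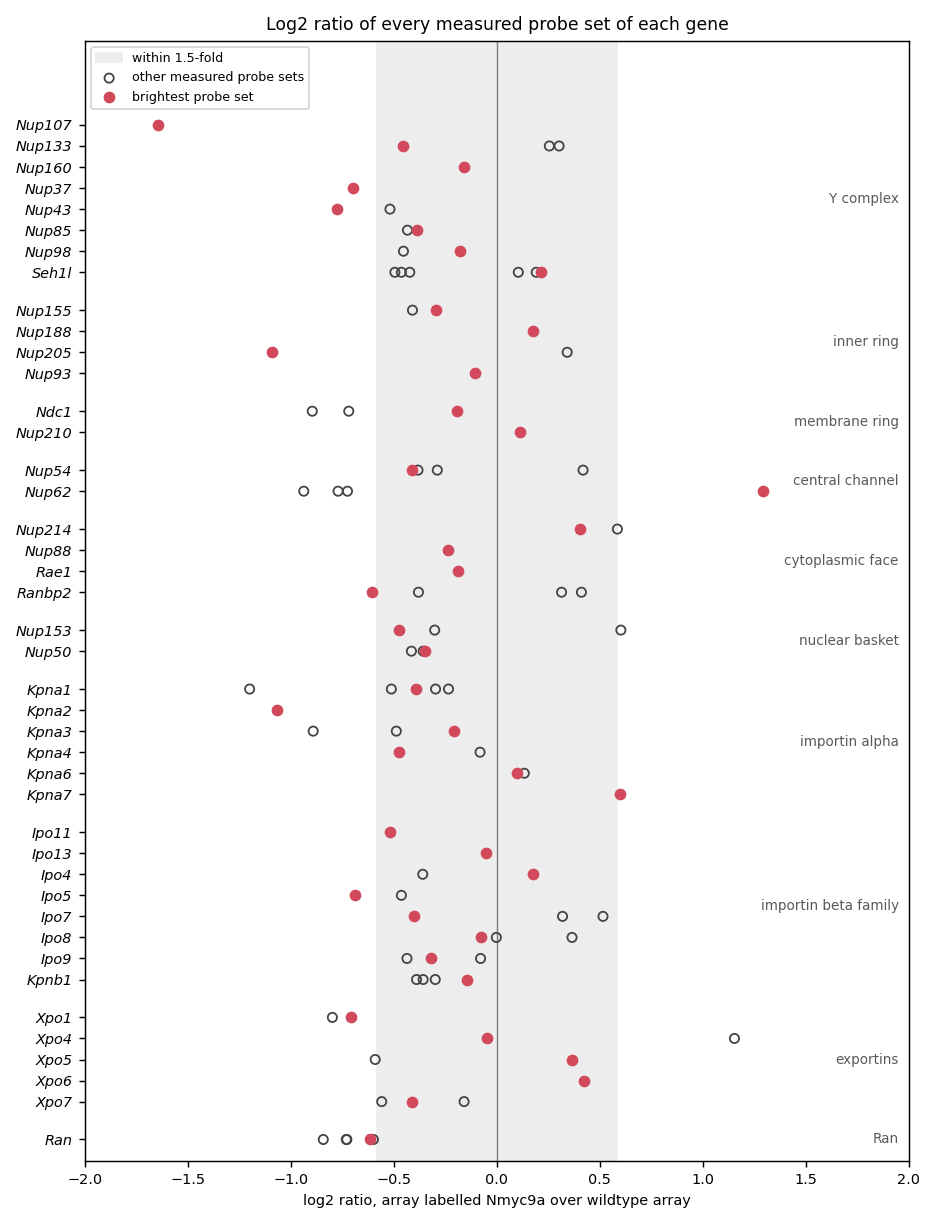
Log2 ratio of the array labelled Nmyc9a over the wildtype array for all 98 measured probe sets of the 42 measured members, with the brightest probe set of each gene filled, the others open and the range within 1.5-fold shaded. The 5 probe sets of Ran lie together below -0.58, while the filled point of Nup62 lies at 1.29 and its open points between -0.94 and -0.73.

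Agreement between probe sets divided the members. Of the 29 members with at least 2 measured probe sets 15 were lower in all of them (51.7%), 2 were higher in all and 12 were mixed. Over all genes with at least 2 measured probe sets, 1709 of 5671 (30.1%) were lower in all and 1139 higher in all. Of the 6 members past 1.5-fold lower with at least 2 measured probe sets, Ran, Xpo1, Ipo5 and Nup43 were lower in all, and Nup205 and Ranbp2 were mixed. Over all genes 329 of 526 such genes were lower in all, a share near that of the members. Nup107, Kpna2 and Nup37 had 1 measured probe set each. In those 29 genes the brightest probe sets had a median log2 ratio of -0.35 and the 56 others one of -0.38.

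Log2 ratios moved with signal on these arrays, for all probe sets and for the members. Probe sets with a mean signal from the floor to 100 had a median of 0.17 over all 8889 and of -0.12 over the 20 of members. From 100 to 200 the medians were 0.05 and -0.36, the latter over 29 member probe sets. From 200 to 400 they were -0.08 and -0.30, with 32 of members. At 400 or above they were -0.20 over all 4906 and -0.60 over the 17 of members, of which 16 lay below 0 and 9 were at least 1.5-fold lower. Of all 4906 in that band 72.5% lay below 0 and 551 were at least 1.5-fold lower. Probe sets of the same gene share their transcript, so these counts are not counts of independent genes. Loess on mean signal, which removes the trend of all probe sets, left 5 of 42 members lower by 1.5-fold (11.9%), near the 9.25% of all measured genes under the same setting. It gave a members' median of -0.20, where that of all measured genes was -0.06. Quantile normalization also left 5 (11.9%), near its 10.9% of all measured genes.

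**Figure D3:**
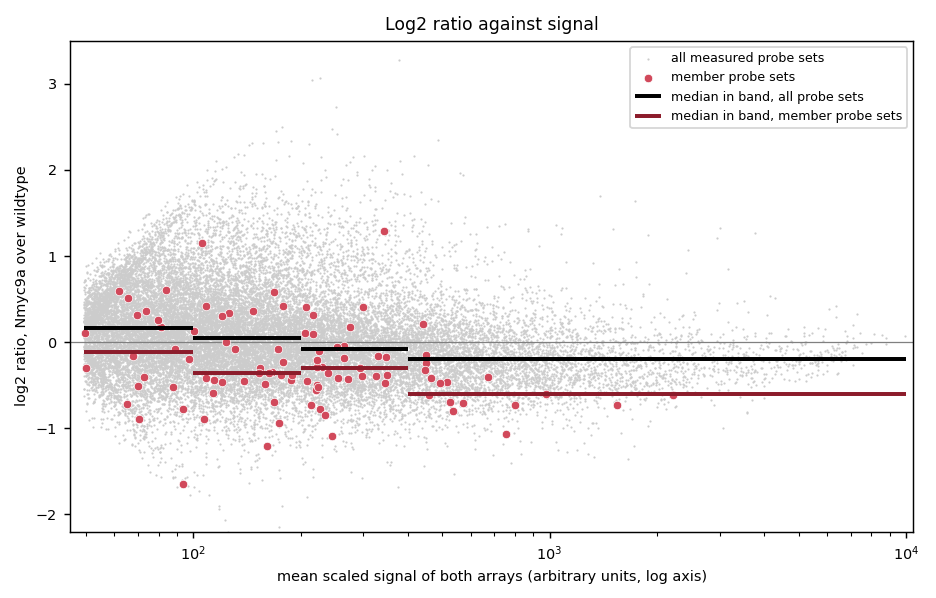
Log2 ratio against mean scaled signal (log axis, arbitrary units) for all 27191 measured probe sets in grey and the 98 of members in red, with bars for the median of each in 4 bands of signal. Both sets of bars step down towards higher signal except between the middle bands of the members, and the members' bar lies below that of all probe sets in each band.

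The settings separated the lower members further. Kpna2 and Nup107 were at least 1.5-fold lower under every setting that gave them a value, 9 and 7 of them. Under all 3 other scalings (values as deposited, quantile normalization and loess) 5 members were, Kpna2, Nup107, Nup205, Nup37 and Nup43. Ran and Ranbp2 were within 1.5-fold under each of those scalings, and Ipo5 and Xpo1 were past it only with the values as deposited. All 9 stayed below 0 under each setting that gave a value, with Ranbp2 at -0.03 for the median over its probe sets.

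**Figure D4:**
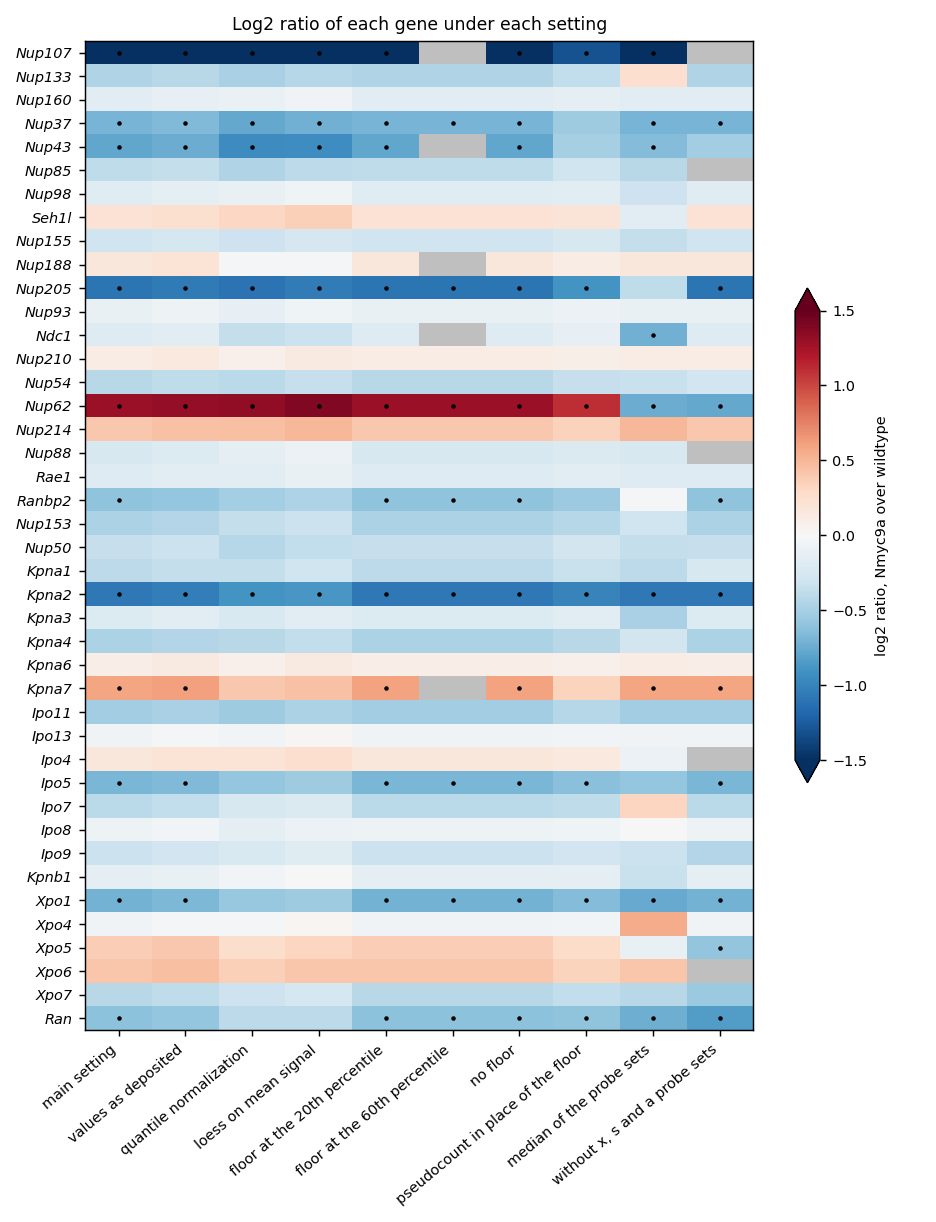
Log2 ratio of each measured member, as colour, in the main setting and 9 others, with a dot where the gene is at least 1.5-fold apart and grey where the setting gives no value. Kpna2 carries a dot in every column, and Nup62 turns from red to blue in the columns for the probe set median and for leaving out x, s and a probe sets.

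Other genes of nuclear transport and the nuclear envelope, from a list set by role, lay mostly below 0. Of 38 measured 6 were at least 1.5-fold lower (15.8%) and 1 higher (2.63%), where 9.7% and 6.33% of all measured genes were, and their median was -0.25 against -0.09. After loess 4 of the 38 were lower (10.5%), near the 9.25% of all measured genes. Ranbp1, which helps to dissociate Ran from its receptors, read 1318 and 754 by its only measured probe set, 1.75-fold lower. Pom121, a membrane anchor of the pore, read 893 and 443, 2.02-fold lower, with its second probe set above 0. Nxt2 and Nxt1, cofactors of the mRNA exporter Nxf1, read 131 and 61.4 (2.14-fold lower) and 243 and 153 (1.58-fold lower), each from 1 measured probe set.

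Within the envelope, Lmna, lamin A/C, read 427 and 277 (1.54-fold lower) and Banf1, a chromatin-bridging factor, 930 and 607 (1.53-fold lower), each lower in all 3 measured probe sets. Emd, emerin, was the higher gene, at 187 and 282 (1.51-fold). Cse1l, the exportin that returns importin alpha to the cytoplasm, read 534 and 362, a log2 ratio of -0.56, just inside the size rule. The channel nucleoporin that the files call Nupl1, also known as Nup58, read 394 and 308, with all 4 measured probe sets lower, and Nupl2, also known as Nup42, read 92.4 and 92.2. Neither symbol meets the rule for members.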

How the data were processed

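The authors deposited a linear signal intensity per probe set, by steps that no label or header records. The trimmed mean was 150 on both arrays. The 64 control probe sets were set aside. A factor of 0.977 was applied to the array labelled Nmyc9a, which set the median log2 ratio over probe sets with a mean signal at or above the floor to 0. The floor was the 40th percentile, 49.3. Symbols were updated through Entrez identifiers to RefSeq (GRCm38.p6), which matched all 122 member probe sets. Each gene took its brightest probe set by mean signal, and probe sets naming several genes were not used. Every measured member was named, ordered by role, and pathway genes past 1.5-fold were named too. Members, lists and size rules were chosen with earlier results of these data known. Other settings were the values as deposited, quantile normalization, loess (span 0.3), a floor at the 20th or the 60th percentile, no floor (minimum 1.0), a pseudocount of 49.3, other probe set choices and a 2-fold rule. The code (Python 3.11.15, statsmodels 0.14.6) was tested on simulated arrays.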

Additional observations from a re-analysis of the deposited data

How the results depend on the processing

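The members' median log2 ratio of -0.27 stayed below 0 under all 9 settings and was -0.20 after loess, the farthest from the main value. The count of lower members, 9 of 42, was 5 after quantile normalization, 5 after loess and 3 by the 2-fold rule, and 6 to 9 otherwise. The 5 of 42 (11.9%) stand near the shares of all measured genes under quantile normalization (10.9%) and loess (9.25%), whereas the main 21.4% stood against 9.7%. The 2 higher members became 1 after quantile normalization or loess, with the floor at the 60th percentile, with a pseudocount, for the median over probe sets, without x, s and a probe sets and by the 2-fold rule. Nup62 reversed, to -0.75 for the median over its probe sets and to -0.77 when x, s and a probe sets were left out. Of pathway genes outside the members 6 were lower, and 3 with a pseudocount, 2 by the 2-fold rule, 4 after loess, 8 with the floor at the 20th percentile, 6 without a floor and 5 under the other settings. The higher one became 2 with the values as deposited or after loess, and 0 with a pseudocount or by the 2-fold rule. A pseudocount shrinks all ratios by construction, and the cause of the other differences was not tested. No paired analysis was possible because each group holds 1 array. Signals near the floor limit Nup107, Kpna7, Nup188 and Ndc1.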
